A study of Mus musculus with 9 samples.

Results

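The genes described here are 36 genes of glycolysis and of the response to low oxygen, out of 30588 genes in the deposited RNA-Seq table. They were chosen by name: 3 hexokinases, 7 genes of the other preparatory steps of glycolysis, 8 of the payoff steps with lactate dehydrogenase, 3 pyruvate dehydrogenase kinases, 2 genes of the PFKFB family, 6 of oxygen sensing and 7 targets of hypoxia. Of these, 35 passed the filter on low counts and were tested. The cells were bone marrow-derived dendritic cells (DCs), grown for 6 days with granulocyte-macrophage colony-stimulating factor and selected for CD11c, an integrin of DCs, from wild-type (WT) mice and from Δ*Gnas* mice. *Gnas* encodes the G protein alpha subunit that activates adenylyl cyclase, the enzyme that makes cAMP. Δ*Gnas* mice carry *Gnas* fl/fl and CD11c-Cre, a recombinase driven by the promoter of the CD11c gene, and the study describes this Cre as leaky, so some *Gnas* transcript is left. No culture received a drug or a DC stimulus, and the samples of both genotypes are labelled C57BL/6J. There were 5 WT libraries, replicates 3 to 7, and 4 Δ*Gnas* libraries, replicates 3, 4, 6 and 7, with replicates 3 and 4 labelled male and 5, 6 and 7 labelled female.

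Glycolysis splits glucose into pyruvate in the cytosol, first spending ATP in the preparatory steps and then regaining it in the payoff steps. Hexokinase, phosphofructokinase and pyruvate kinase catalyse its essentially irreversible steps, and lactate dehydrogenase turns pyruvate into lactate. When oxygen falls, prolyl hydroxylases stop marking hypoxia-inducible factor 1 alpha (*Hif1a*) for destruction by the von Hippel-Lindau protein (*Vhl*), and the factor, paired with *Arnt*, raises transcription of many glycolytic enzymes. DCs are known to turn to glycolysis when they are activated, and HIF-1 is active in myeloid cells also at normal oxygen.

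Depth was 34252701 to 49427934 estimated counts per library. *Gnas*, the targeted gene, was at 404 to 532 TPM (transcript abundance scaled to the same total in each library) in the WT libraries and at 48.0 to 63.6 TPM in the Δ*Gnas* libraries, as labelled. WT replicate 7 was labelled female but had 21.3 TPM of the Y-linked gene *Ddx3y*, against 0.0173 to 0.16 TPM in the other libraries labelled female, so the results below are also given without it where that matters. WT replicate 3 had 1.39% of its counts in mitochondrial transcripts, against 5.86 to 8.55% in the other libraries. It was the highest of the 9 libraries, in TPM, for 12 of the 36 members. It also had the highest scaling factor in edgeR (TMM, 1.21), by which TPM is not adjusted. The share of all genes that were highest in it was not determined. The DC marker list summed to 24305 to 40425 TPM, and of its 11 tested genes 5 were called in edgeR: *Itgax*, which encodes CD11c (log2 fold change 1.09), and *H2-Ab1*, of MHC class II (0.44), were higher in Δ*Gnas*, and *Zbtb46* (-0.80), *Ccr7* (-1.43) and *Cd86* (-0.99) were lower. The macrophage list summed to 2872 to 4025 TPM in WT and 1296 to 1978 in Δ*Gnas*, with 6 of 9 tested genes lower in edgeR. The eosinophil list summed to 10.7 to 23.4 TPM in WT and 76.9 to 142 in Δ*Gnas*, with 2 of 3 tested genes higher. These were *Ear1* (log2 fold change 5.28) and *Siglecf* (2.18), while *Prg2* was not called (0.50, edgeR adjusted p = 0.589). *Epx*, also on this list, was at 0.677 TPM at most and was not tested. The neutrophil list had 0 of 5 tested genes called in edgeR (1 at an unadjusted p under 0.05) and was at 84.7 to 271 TPM in WT and 135 to 921 in Δ*Gnas*, and the mast cell and basophil list had 0 of 2 called in edgeR (1 at an unadjusted p under 0.05) and reached 10.1 TPM at most. The T cell list reached 8.35 TPM at most, with *Cd3g* called higher (edgeR adjusted p = 0.0489), and the B cell, NK cell, erythroid and stromal lists summed to less in every library. No list of markers had a gene at 0 in all libraries, and the part of these cells in the results on the members was not tested.

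The 36 members together made up 4584 to 6163 TPM in the WT libraries and 5503 to 6946 TPM in the Δ*Gnas* libraries, ranges that overlap. *Gapdh*, glyceraldehyde-3-phosphate dehydrogenase, had the highest level per transcript length, at 1358 ± 291 TPM in WT (SD, n = 5) and 1480 ± 225 in Δ*Gnas* (SD, n = 4). *Aldoa*, aldolase A, *Pkm*, pyruvate kinase, and *Ldha*, lactate dehydrogenase A, followed in both genotypes. At the other end, *P4ha2*, a collagen prolyl hydroxylase subunit, was at 0.977 ± 0.465 TPM in WT and 0.588 ± 0.249 in Δ*Gnas*, and did not pass the filter. *Pfkm*, muscle phosphofructokinase, and *Egln3*, an oxygen-sensing prolyl hydroxylase, were tested but also low, at 5.2 TPM or less in every library.

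**Figure D1:**
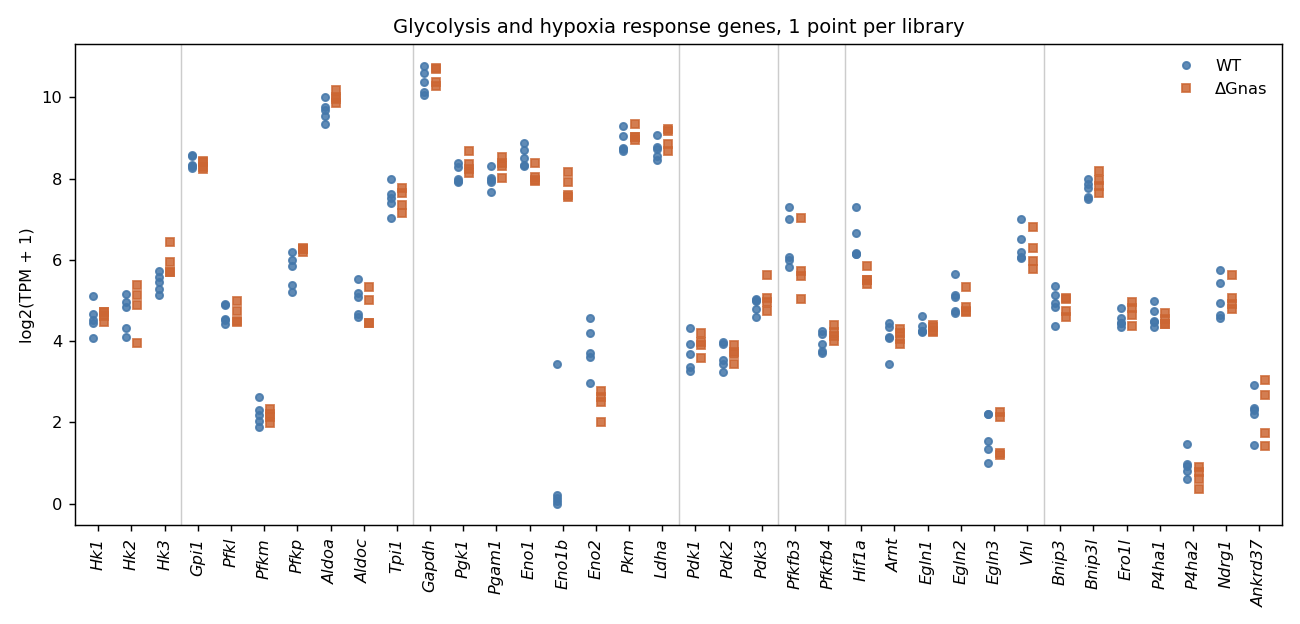
Level of each of the 36 members as log2(TPM + 1), 1 point per library, for 5 WT (circles) and 4 ΔGnas libraries (squares), with grey lines between the roles. The genotypes overlap for most members, and Eno1b stands at 186 to 286 TPM in ΔGnas against 0 to 9.78 TPM in WT.

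Most members did not differ between the genotypes beyond the spread of the libraries. Of the 35 tested members, 4 passed edgeR's quasi-likelihood test at an adjusted p under 0.05, or 11.4%, against 9.56% of all 11862 genes tested. *Eno1b* and *Pfkp* were higher in Δ*Gnas*, where 5.41% of all genes were called higher, and *Eno2* and *Hif1a* were lower, where 4.15% were called lower. The same 4 were the members whose TPM did not overlap between genotypes, against 10.6% of all genes. These shares of members lie near those of all genes. At an unadjusted p under 0.05 there were 6 members, or 17.1%, against 23.7% of all genes. In bulk RNA, fewer cells of a type and less RNA per cell cannot be told apart.

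The median log2 fold change of the 35 members, Δ*Gnas* over WT, was 0.05, and that of all genes was -0.0043, with 22 members above 0 and 13 below. Of the 31 members not called, 28 had a 95% interval of the log2 fold change within -1 and 1, so a change of over 2-fold lay outside the interval. The other 3, *Pfkfb3*, *Egln3* and *Ankrd37*, varied widely between the libraries of each genotype, and their intervals still held changes of over 2-fold.

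**Figure D2:**
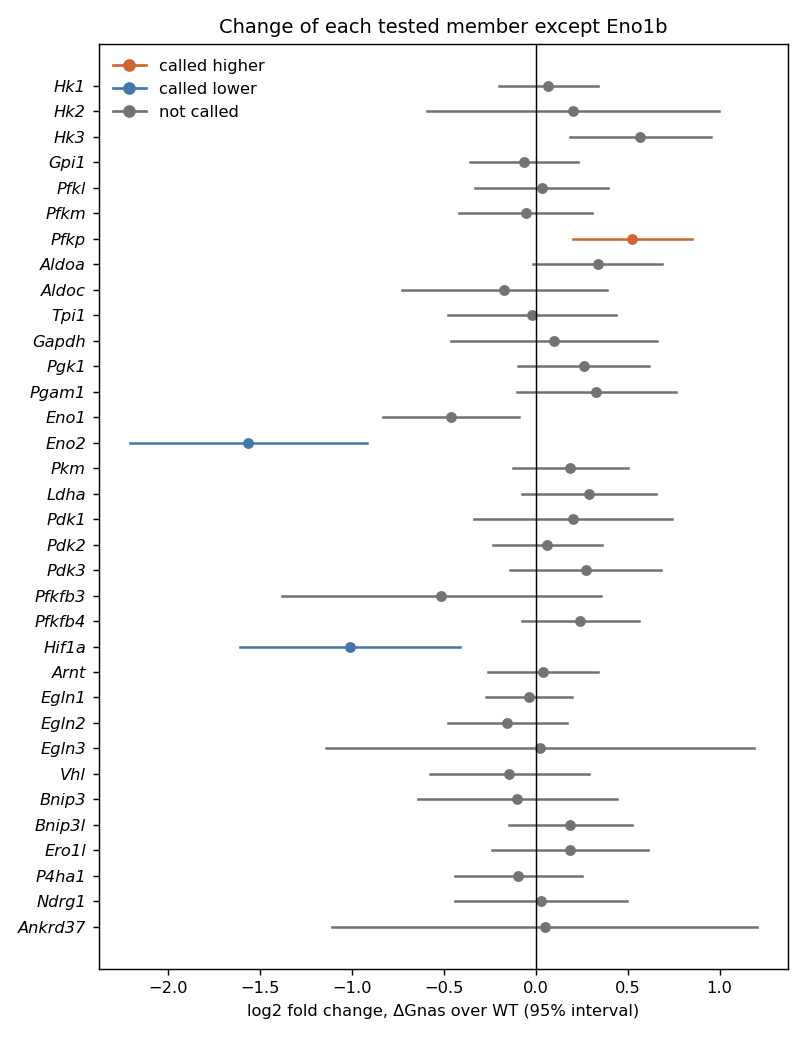
Log2 fold change, ΔGnas over WT, of the 34 tested members other than Eno1b, with 95% intervals from edgeR. Eno2 (-1.56) and Hif1a (-1.01) were called lower and Pfkp (0.53) higher, and the intervals of Egln3 and Ankrd37 reach past -1 and 1.

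The promoters of called members are shown because HIF-1 binds a short core that can be looked for in the bases before a gene's start. RefSeq promoter windows on GRCm38.p6 were at hand for 32 of the 36 members. The capitals mark the cores ACGTG and GCGTG on either strand, and the bases run 5′ to 3′ on the gene's strand up to its RefSeq start or to the first base of an annotated exon. The window of *Eno2* overlapped an annotated exon and is not printed. *Hif1a* is shown at chr12:73907617-73907866 on the plus strand and *Pfkp* at chr13:6648778-6649021 on the minus strand. This window of *Hif1a* lies within the gene as placed by GENCODE, which begins at position 73901375. Only 1 window per gene is printed, and a gene can have several.
Hif1a: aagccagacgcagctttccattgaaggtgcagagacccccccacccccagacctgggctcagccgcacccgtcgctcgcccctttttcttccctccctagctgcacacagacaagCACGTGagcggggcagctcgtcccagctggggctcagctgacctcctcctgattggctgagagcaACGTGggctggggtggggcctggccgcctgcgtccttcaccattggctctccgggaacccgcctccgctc
Pfkp: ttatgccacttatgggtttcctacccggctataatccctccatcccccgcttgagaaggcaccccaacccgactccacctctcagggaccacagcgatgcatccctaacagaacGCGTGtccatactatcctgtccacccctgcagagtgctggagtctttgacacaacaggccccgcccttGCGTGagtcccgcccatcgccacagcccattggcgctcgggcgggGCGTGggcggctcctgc
These 250 bases of *Hif1a* held the core in 2 places, once as the palindrome CACGTG, which matches on both strands, and the 244 bases of *Pfkp* held GCGTG in 3 places. Neither held TGACG, the half-site of the cAMP response element, on either strand. Over all members with a window, 28 of 32 genes held a HIF core within the 250 bases before a start, in 37 of 47 windows (78.7%), against 38.6% of all 32851 windows. The half-site TGACG was in 10 of the 47 windows (21.3%), against 17.8% of all. The windows of members had a median GC content of 60.4%, against 52.4% for all windows, and a match is a description of letters and not a binding site.

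Hexokinase, which traps glucose in the cell as glucose 6-phosphate, was represented by 3 genes, and none of the 3 passed the test. *Hk3*, the isoform known from myeloid cells, had the largest share of the summed hexokinase TPM in every library, 42.6 to 52.9% in WT and 45.3 to 61.4% in Δ*Gnas*. In WT replicates 3 to 7, *Hk3* was at 51.9, 37.9, 42.8, 46.3 and 34.2 TPM, and in Δ*Gnas* replicates 3, 4, 6 and 7 at 50.9, 51.2, 60.5 and 85.9 TPM. In TPM, only WT replicate 3 reached into the Δ*Gnas* range, and Δ*Gnas* replicate 7 stood highest. On CPM scaled by TMM factors, all Δ*Gnas* libraries were above all WT libraries. The log2 fold change was 0.57 (SE 0.17, edgeR adjusted p = 0.0686), and without Δ*Gnas* replicate 7 it was 0.35 (edgeR adjusted p = 0.130). *Hk3* did pass the study's own kind of test, edgeR's exact test (adjusted p = 0.0318), and DESeq2 (adjusted p = 0.0232).

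*Hk2*, the inducible hexokinase and a classical HIF-1 target, varied more than *Hk3* and without regard to genotype. It was at 18.8, 27.6, 16.1, 34.5 and 30.3 TPM in WT replicates 3 to 7 and at 14.6, 40.6, 34.1 and 28.8 TPM in the Δ*Gnas* replicates 3, 4, 6 and 7. The lowest and the highest library were both Δ*Gnas*. *Hk1*, the widely expressed form, was at 15.9 to 33.3 TPM in WT and 21.1 to 25.2 in Δ*Gnas*, and its log2 fold change of 0.07 had a 95% interval of -0.20 to 0.34.

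Phosphofructokinase commits sugar to glycolysis, and its platelet-type gene *Pfkp* rose in Δ*Gnas* DCs. The WT replicates 3 to 7 were at 71.7, 40.7, 63.3, 56.2 and 36.1 TPM, and the Δ*Gnas* replicates 3, 4, 6 and 7 at 71.8, 77.7, 75.5 and 76.3 TPM. In TPM the genotypes did not overlap, but WT replicate 3 almost reached the lowest Δ*Gnas* library. The WT libraries were also spread far more widely in TPM than the Δ*Gnas* libraries. TPM is not adjusted by the TMM factor, which was highest in WT replicate 3 (1.21). The log2 fold change was 0.53 (SE 0.15, edgeR adjusted p = 0.0491), or 1.44-fold. This call rested on the edge of the threshold, since it held in 7 of 21 alternative settings. It was lost without WT replicate 3, 4, 6 or 7 and without Δ*Gnas* replicate 4, 6 or 7 (edgeR adjusted p = 0.0578 to 0.140), with log2 fold changes between 0.44 and 0.61 in all 21.

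*Pfkp* held the largest share of the phosphofructokinase TPM, 59.3 to 72.3% in WT and 69.6 to 74.6% in Δ*Gnas*. *Pfkl*, the liver-type gene, held 23.2 to 36.2% in WT and 21.3 to 27.8% in Δ*Gnas*, and its level was 24.6 ± 4.14 TPM in WT and 24.8 ± 4.31 in Δ*Gnas*. The muscle-type *Pfkm* held 4.92% at most. *Pfkp* overlaps the peptidase gene *Pitrm1* on the opposite strand, and *Pitrm1* had a log2 fold change of -0.0011 (edgeR adjusted p = 0.995).

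The other preparatory enzymes did not pass the test. *Aldoa*, aldolase A, which splits fructose 1,6-bisphosphate, held 95.1 to 98.2% of the aldolase TPM. Its level was 648 to 1024 TPM in WT and 933 to 1160 in Δ*Gnas*, with a log2 fold change of 0.34 (95% interval -0.01 to 0.69, edgeR adjusted p = 0.230). *Aldoc*, the brain-type aldolase, was at 22.9 to 44.8 TPM in WT and 20.7 to 39.0 in Δ*Gnas*. *Gpi1*, glucose-6-phosphate isomerase, was among the steadiest members, at 341 ± 35.7 TPM in WT and 325 ± 22.7 in Δ*Gnas*, and *Tpi1*, triosephosphate isomerase, was at 186 ± 45.0 and 181 ± 34.2 TPM. Their log2 fold changes were -0.06 and -0.02.

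Enolase turns 2-phosphoglycerate into phosphoenolpyruvate, and its single genes *Eno1b* and *Eno2* had the largest log2 fold changes among the members. The sum of *Eno1* and *Eno1b* did not pass the test, as given below. *Eno2*, known as the neuron-specific or gamma enolase, fell in Δ*Gnas* DCs. It was at 22.7, 17.4, 12.1, 6.81 and 11.3 TPM in WT replicates 3 to 7 and at 5.84, 3.04, 4.62 and 5.17 TPM in Δ*Gnas* replicates 3, 4, 6 and 7. All 4 Δ*Gnas* libraries were below all 5 WT libraries, of which WT replicate 6 came nearest. The log2 fold change was -1.56 (SE 0.29, edgeR adjusted p = 0.0103), so WT was 2.96-fold higher. This was the member with the steadiest call, past the threshold in all 21 alternative settings with log2 fold changes of -1.74 to -1.34. *Eno2* lies at chromosome 6, 124760053 to 124769673, and even in WT it held no more than 5.11% of the TPM of *Eno1*, *Eno1b* and *Eno2* together.

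**Figure D3:**
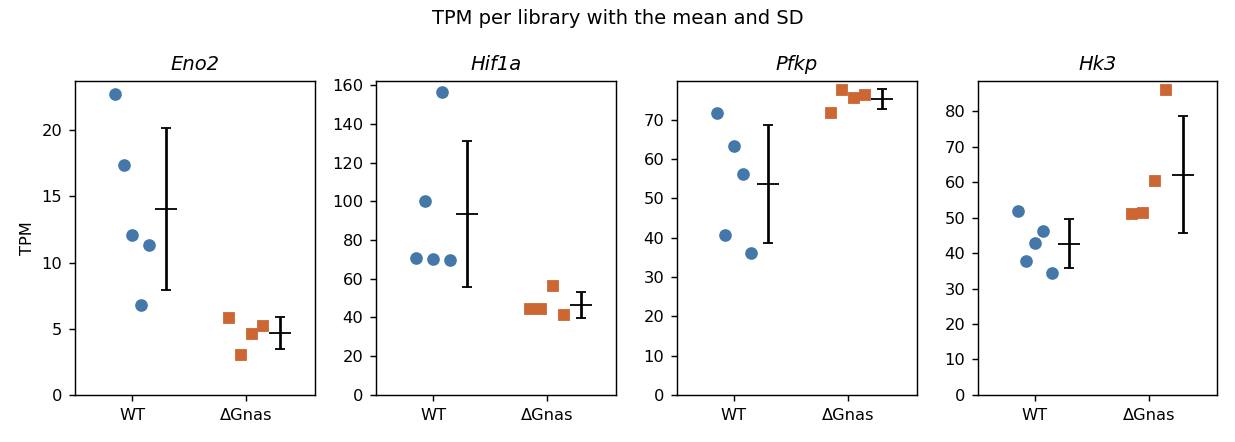
TPM of Eno2, Hif1a, Pfkp and Hk3 in each WT (circles) and ΔGnas library (squares), ordered by replicate number, with the mean and SD of each genotype in black. The genotypes do not overlap for Eno2, Hif1a and Pfkp, while for Hk3 WT replicate 3 lies above the 2 lowest ΔGnas libraries.

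*Eno1*, the main enolase outside muscle and neurons, and *Eno1b*, a retrogene copy of it at chromosome 18, 48045335 to 48048412, have to be read together. In WT replicates 3 to 7, *Eno1b* was at 9.78, 0.0484, 0.0895, 0 and 0.155 TPM, and in Δ*Gnas* replicates 3, 4, 6 and 7 at 193, 242, 186 and 286 TPM. In estimated counts that was 484, 2, 3, 0 and 7 in the WT libraries and 7041 to 12354 in the Δ*Gnas* libraries. WT replicate 3 stood apart from the other WT libraries, and every Δ*Gnas* library was far above every WT library. The log2 fold change was 7.0 (SE 1.41, edgeR adjusted p = 0.0147), and without WT replicate 3 it was 11.43 (edgeR adjusted p = 3.18e-06), a fitted value that depends on very few WT counts.

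The transcripts of *Eno1* and *Eno1b* share most of their letters, so reads can be divided between them by the estimation step. Of the 31-base stretches in the transcripts of *Eno1b*, 81.8% also occur in those of *Eno1* in GENCODE. *Eno1* itself was at 469, 322, 316, 419 and 365 TPM in WT replicates 3 to 7 and at 248, 261, 244 and 335 TPM in Δ*Gnas* replicates 3, 4, 6 and 7. Its log2 fold change of -0.46 (SE 0.17, edgeR adjusted p = 0.118) did not pass the test, although DESeq2 called it lower (adjusted p = 0.0411). *Eno1b* held 43.2 to 48.1% of the TPM of the pair in Δ*Gnas* and 0 to 2.04% in WT.

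When the pair was summed and fitted as 1 gene, the direction for *Eno1* turned. The sum was 316 to 479 TPM in WT and 430 to 621 in Δ*Gnas*, with overlap through WT replicate 3, and its log2 fold change was 0.41 (SE 0.17, edgeR adjusted p = 0.186). A further copy, the processed pseudogene *Gm4735*, moved with *Eno1b*, at 57.9 to 77.7 TPM in Δ*Gnas* and 0 to 5.32 TPM in WT. With it included, the sum was 382 ± 70.7 TPM in WT (SD, n = 5) and 565 ± 96.4 in Δ*Gnas* (SD, n = 4). This sum did not overlap between genotypes, but WT replicate 3 (484 TPM) almost reached Δ*Gnas* replicate 6 (488 TPM). Its log2 fold change was 0.58 (edgeR adjusted p = 0.0641). Neither sum passed the test, whereas *Eno1b* alone and *Gm4735* alone did (edgeR adjusted p = 0.0147 and 0.00604). *Eno1* lies at chromosome 4, 150236721 to 150248879. Among 78 other tested genes within 5 Mb of it, 18 were called (23.1%), against 9.56% of all genes. The same windows around called members held 15 of 105 genes called for *Eno2* (14.3%), 2 of 18 for *Pfkp* (11.1%) and 3 of 56 for *Hif1a* (5.36%), and the windows were chosen after the values were seen.

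**Figure D4:**
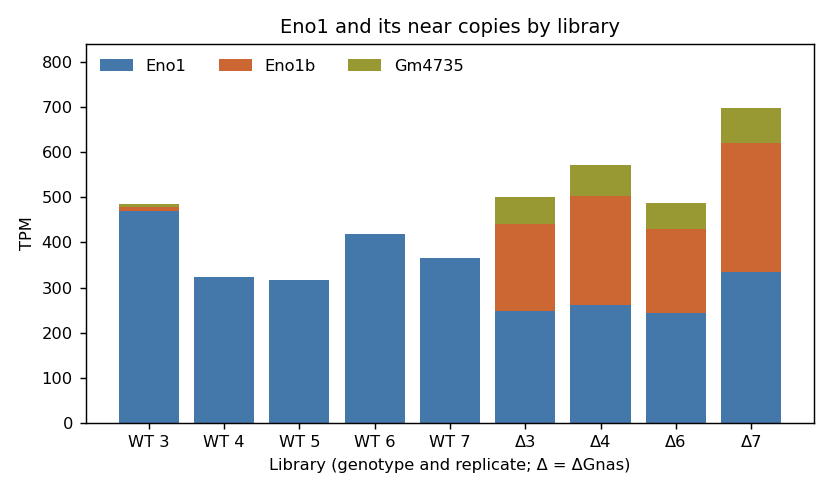
TPM of Eno1, its retrogene copy Eno1b and the pseudogene Gm4735, stacked for each of the 5 WT and 4 ΔGnas libraries. Eno1b (186 to 286 TPM) and Gm4735 (57.9 to 77.7 TPM) make up the upper part of every ΔGnas bar, and in the WT bars they reach 9.78 and 5.32 TPM at most.

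*Gapdh*, too, has near copies in the table, and their values differed between libraries of 1 genotype. How reads were divided between a member and its copies was not tested, here or for *Eno1*, since only values per gene were analysed. *Gapdh* was at 1117, 1319, 1060, 1546 and 1751 TPM in WT replicates 3 to 7 and at 1237, 1682, 1340 and 1660 TPM in Δ*Gnas* replicates 3, 4, 6 and 7. The table holds 40 near copies of it, mostly processed pseudogenes, and these summed to 622 TPM in WT replicate 3, 19.4 TPM in WT replicate 7 and 143 to 289 TPM in the other WT libraries. In Δ*Gnas* the copies summed to 151 to 228 TPM. *Gm10359*, *Gm12671* and *Gm7336* carried identical values in each library, 201 TPM in WT replicate 3 and 0.0075 TPM in WT replicate 7.

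With the copies added, *Gapdh* was at 1740, 1589, 1203, 1835 and 1771 TPM in the WT replicates 3 to 7, so WT replicate 3 moved from the second lowest WT library to the third highest. The log2 fold change was 0.10 (95% interval -0.46 to 0.66, edgeR adjusted p = 0.855) for *Gapdh* alone and 0.03 (edgeR adjusted p = 0.95) with its copies. *Pgam1*, phosphoglycerate mutase, had up to 10.8% of such a sum in its 1 copy, in WT replicate 3, and *Pgk1*, phosphoglycerate kinase, up to 0.903%.

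The remaining payoff enzymes had positive log2 fold changes that did not pass the test. *Pgk1* was at 277 ± 43.4 TPM in WT and 328 ± 55.5 in Δ*Gnas*, a log2 fold change of 0.26. *Pgam1* was at 254 ± 41.8 and 320 ± 45.9 TPM, a log2 fold change of 0.33. *Pkm* was at 483 ± 92.5 and 543 ± 69.5 TPM, and *Ldha*, the last step of aerobic glycolysis, at 426 ± 70.6 and 511 ± 88.3 TPM. For *Ldha* the log2 fold change was 0.29 with a 95% interval of -0.08 to 0.66, and the Δ*Gnas* replicates 4 and 7 (591 and 579 TPM) were the 2 highest of all 9 libraries. Over the 18 enzymes from hexokinase to lactate dehydrogenase, 12 had a positive log2 fold change, against 49.4% of all genes, and the median was 0.14. Without *Eno1b*, 11 of 17 were positive and the median was 0.10. This count was not tested.

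Pyruvate dehydrogenase kinases limit the use of pyruvate in the mitochondria by switching off the pyruvate dehydrogenase complex. *Pdk3* was the main form, with 49.3 to 64.1% of the TPM of *Pdk1*, *Pdk2* and *Pdk3*. It was at 28.6 ± 3.70 TPM in WT and 34.1 ± 9.82 in Δ*Gnas*, where replicate 4, at 48.3 TPM, stood above the others (25.9 to 32.1 TPM). *Pdk1*, a target of HIF-1, was at 12.6 ± 4.15 and 14.3 ± 2.61 TPM, and *Pdk2* at 11.6 ± 2.75 and 11.9 ± 1.72 TPM. In edgeR 0 of the 3 passed the test, with 0 at an unadjusted p under 0.05, and DESeq2 called 0.

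The PFKFB enzymes set the level of fructose 2,6-bisphosphate, the activator of phosphofructokinase. *Pfkfb3*, the form that mostly makes it, was one of the most variable members within a genotype. It was at 156, 127, 55.1, 65.7 and 62.6 TPM in WT replicates 3 to 7 and at 130, 32.0, 51.9 and 47.3 TPM in Δ*Gnas* replicates 3, 4, 6 and 7. Replicate 3 was the highest library in both genotypes and WT replicate 4 was also high, so the genotypes overlapped widely, and the log2 fold change of -0.51 had a 95% interval of -1.38 to 0.35. *Pfkfb4* was at 14.8 ± 2.68 TPM in WT and 17.4 ± 2.18 in Δ*Gnas*.

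*Hif1a*, the oxygen-regulated subunit of HIF-1, fell in Δ*Gnas* DCs, while its partner and regulators did not pass the test. It was at 70.7, 100.2, 70.1, 156 and 69.7 TPM in WT replicates 3 to 7 and at 44.1, 44.3, 56.2 and 41.4 TPM in Δ*Gnas* replicates 3, 4, 6 and 7. The genotypes did not overlap, and WT replicates 4 and 6 stood above the other WT libraries. The log2 fold change was -1.01 (SE 0.27, edgeR adjusted p = 0.0426), so WT was 2.02-fold higher. The call held in 13 of 21 alternative settings, and the log2 fold change stayed between -1.15 and -0.75. It was lost without WT replicate 4 (edgeR adjusted p = 0.0841), without WT replicate 7 (edgeR adjusted p = 0.0608) and without any 1 of the Δ*Gnas* libraries (edgeR adjusted p = 0.0667 to 0.118).

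HIF-1 alpha is controlled mostly through its protein, which these data do not measure. *Arnt*, its partner, was at 16.3 ± 4.19 TPM in WT and 16.5 ± 1.92 in Δ*Gnas*. *Egln1* and *Egln2*, prolyl hydroxylases that mark HIF for destruction, were at 19.3 ± 2.42 and 33.4 ± 9.89 TPM in WT and at 18.7 ± 1.08 and 29.6 ± 6.49 TPM in Δ*Gnas*. *Egln2* held the largest share of the 3 hydroxylases in every library, 52.3 to 67.3%. *Vhl* was at 84.3 ± 26.3 and 75.7 ± 25.3 TPM, a log2 fold change of -0.14.

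The 7 listed targets of hypoxia had 0 called genes among the 6 tested in edgeR, and 0 at an unadjusted p under 0.05. *Bnip3* and *Bnip3l*, which act in the removal of mitochondria, had log2 fold changes of -0.10 (95% interval -0.64 to 0.44) and 0.19 (-0.15 to 0.52). *Bnip3l* was the most abundant of the targets, at 214 ± 30.9 TPM in WT and 241 ± 39.9 in Δ*Gnas*. *Ero1l*, an oxidase of the endoplasmic reticulum, was at 22.2 ± 3.10 and 25.3 ± 4.44 TPM and *P4ha1*, the main collagen prolyl hydroxylase subunit here, at 23.7 ± 4.50 and 22.1 ± 2.18 TPM. *Ndrg1*, a stress-induced gene that is often used as a hypoxia marker, was at 34.3 ± 13 and 34.2 ± 9.82 TPM.

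Several oxygen-regulated members varied from library to library together, in both genotypes. *Egln3*, itself induced by HIF-1, was at 1.56, 1.92, 1.0, 3.64 and 3.63 TPM in WT replicates 3 to 7 and at 1.39, 3.75, 1.28 and 3.35 TPM in Δ*Gnas* replicates 3, 4, 6 and 7. *Ankrd37*, another HIF-1 target, was at 3.62, 3.94, 1.70, 4.07 and 6.59 TPM in WT and at 1.68, 5.41, 2.36 and 7.22 TPM in Δ*Gnas*. The 4 highest libraries of both genes were WT replicates 6 and 7 and Δ*Gnas* replicates 4 and 7. *Bnip3* and *Gapdh* had the same 4 highest libraries in TPM. On CPM scaled by TMM factors 9 members did, adding *Pfkl*, *Pgk1*, *Egln1*, *Ero1l* and *P4ha1*. These 4 libraries had the lowest TMM factors (0.825 to 0.993), so this scaling raises them relative to the others for every gene. The share of all genes with the same 4 highest libraries was not determined.

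Another set of members was highest in replicate 3 of both genotypes. *Vhl* was at 128 TPM in WT replicate 3 and 111 TPM in Δ*Gnas* replicate 3, against 53.3 to 90.3 TPM in the other libraries. *Ndrg1* was at 53.2 and 48.5 TPM in the same libraries, against 22.6 to 42.0 TPM in the others, and *Pfkfb3* and *Egln2* had the same 2 highest libraries. On CPM scaled by TMM factors this held for *Egln2*, *Vhl* and *Ndrg1*, but not for *Pfkfb3*. The libraries high in *Egln3* and those high in *Vhl* were different ones, and both patterns were noticed in these 9 libraries and have no test.

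**Figure D5:**
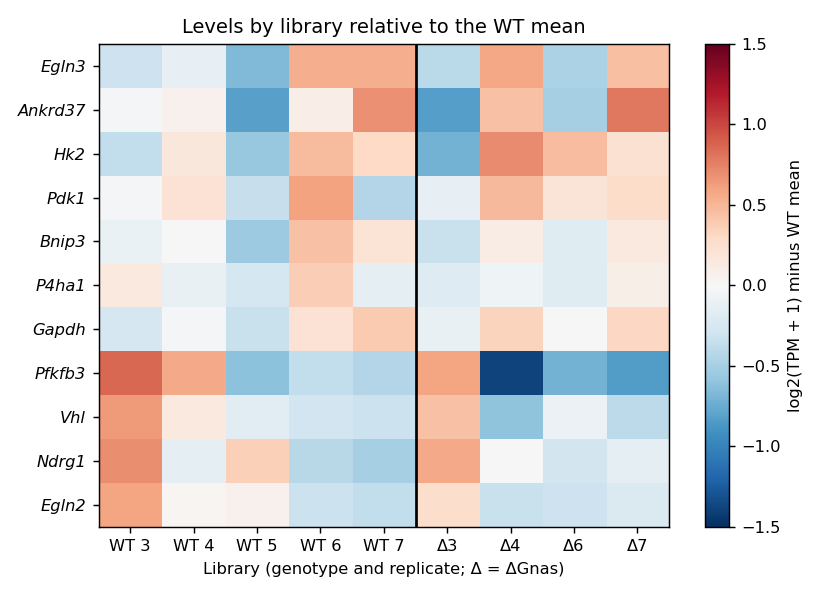
log2(TPM + 1) minus the mean of the WT libraries (colour, blue lower and red higher) for 11 members in the 5 WT and 4 ΔGnas libraries, with a black line between the genotypes. Egln3 and Ankrd37 are highest in WT 6, WT 7, ΔGnas 4 and ΔGnas 7, and Pfkfb3, Vhl, Ndrg1 and Egln2 in the replicates 3.

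Other genes of the same pathways, in lists chosen with earlier results of these data known, were examined next to the members. Of 13 other tested genes of glycolysis, 1 rose and 2 fell in edgeR (23.1%, against 9.56% of all genes), and without Δ*Gnas* replicate 7 there was 1 call. *Eno3*, the muscle enolase, was at 20.1, 22.1, 11.0, 12.5 and 21 TPM in WT replicates 3 to 7 and at 57.0, 26.7, 38.8 and 28.6 TPM in Δ*Gnas* replicates 3, 4, 6 and 7, without overlap. Its log2 fold change was 1.09 (SE 0.27, edgeR adjusted p = 0.0358), in the direction opposite to that of *Eno2*. *Galm*, which interconverts the forms of galactose and glucose, fell by 0.83 on the log2 scale (edgeR adjusted p = 0.00238), and *Gpd2*, the mitochondrial enzyme of the glycerol phosphate shuttle, fell by 0.66 (edgeR adjusted p = 0.0152).

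Among 10 genes of glucose and lactate transport, *Slc2a6*, a lysosomal sugar transporter of the GLUT family, rose from 62.7 ± 9.80 TPM in WT to 85.9 ± 6.4 TPM in Δ*Gnas* (log2 fold change 0.47, edgeR adjusted p = 0.0144), a call lost without Δ*Gnas* replicate 6, and 0 fell. The list named pyruvate entry held genes of pyruvate transport into mitochondria and, mostly, of the pyruvate dehydrogenase complex and its regulators. Of its 11 tested genes and of 10 genes of the pentose phosphate pathway, 0 were called in edgeR. In each list 1 gene was at an unadjusted p under 0.05, and DESeq2 called 0 and 1. The median log2 fold changes of these lists were 0.14 and 0.08.

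Of 28 other tested genes of the hypoxia response, 9 were called (32.1%, against 9.56% of all genes), 3 higher and 6 lower. As the list was chosen with earlier results of these data known, this share does not test whether the response differed. *Vegfa*, a growth factor of blood vessels, was at 201 to 360 TPM in WT and 70.9 to 126 in Δ*Gnas* and fell by 1.51 on the log2 scale (edgeR adjusted p = 0.00238). *Ddit4*, an inhibitor of mTORC1, was at 27.5 to 51.9 TPM in WT and 10.3 to 13.1 in Δ*Gnas* and fell by 1.75 (edgeR adjusted p = 0.00434). *Plod1*, a lysyl hydroxylase of collagen, fell by 0.88 (edgeR adjusted p = 0.00215), and *Mxi1*, an antagonist of MYC, by 0.82 (edgeR adjusted p = 0.00363). The 3 that rose, named after their values were seen, were *Tfrc*, the transferrin receptor, *Nos2*, the inducible nitric oxide synthase, at 0.504 to 3.78 TPM in Δ*Gnas*, and *Anln*, a protein of cell division. The list as a whole had a median log2 fold change of 0.02, with 15 genes above 0 and 13 below, and it had 5 calls without Δ*Gnas* replicate 4 and 5 without Δ*Gnas* replicate 7. Genes of the cell cycle were higher in Δ*Gnas*, 20 of 24 tested in edgeR (83.3%, against 5.41% of all genes called higher), with a median log2 fold change of 1.02. The part of these genes in the results on the members was not tested.

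The difference between the genotypes was also compared between the sexes as labelled. In an edgeR fit with an interaction of genotype and sex, 0 of 35 members passed, with 1 at an unadjusted p under 0.05, and 0 of all 11862 genes passed, with 172 at an unadjusted p under 0.05. With 2 to 3 libraries of each sex and genotype, and 1 library whose *Ddx3y* level went against its label, a difference between the sexes was not detectable with these libraries, which does not show that there is none.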

How the data were processed

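Strand-specific mRNA libraries of CD11c+ bone marrow-derived DCs were sequenced by the authors, who checked the reads with FastQC, removed adapters with BBDuk, assigned reads to the Ensembl transcripts of the mouse (GRCm38, per the labels also named mm10) with Kallisto and summed transcripts to genes with tximport. The table they deposited holds TPM and estimated counts for 30620 features. In it the estimated counts are the TPM multiplied by a constant of each library and so do not depend on gene length. Whether strand was used in the assignment is not given in the sources used here, and 5 members overlap the exons of a tested gene on the other strand. Features that name no gene (32, with 0.0843 to 0.121% of the counts) were left out, which left 30588 genes.

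Estimated counts were rounded to whole numbers and tested with edgeR 4.0.16 (glmQLFit and glmQLFTest, R 4.3.3) on TMM factors (0.825 to 1.21), unpaired, for genes over 1 CPM in at least 3 libraries, with Benjamini-Hochberg adjustment over 11862 genes and a threshold of 0.05. The study's methods used the exact test of edgeR, which was run as an alternative. Standard errors were obtained by dividing the absolute log2 fold change by the square root of F. TPM values are not adjusted by TMM, while fold changes are, so both can differ slightly. The test was checked on simulated data.

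The 36 members and the other lists were chosen with earlier results of these data known. All members are named, and of each other list up to 4 called genes by smallest p. Outside this rule, the following were named once their values had been seen: *Gm4735*, *Gm10359*, *Gm12671*, *Gm7336*, *Pitrm1*, *Ccr7*, *Prg2*, *Epx*, *Tfrc*, *Nos2* and *Anln*. The alternatives were DESeq2 1.42.0, the exact test, upper-quartile factors, no filter, a filter over 5 CPM, sex as a covariate, a replicate block, limma-trend (limma 3.58.1) on log2(TPM + 1) and log2(TPM + 0.1), no mitochondrial transcripts, *Eno1* and *Eno1b* summed, and leaving out each library. After the data were seen, a fit with near copies summed into members was added, a near copy being a gene with at least 50% of its 31-base stretches in the coding transcripts of a member (GENCODE M21). A member called in neither of 2 fits counts as the same in both. Promoters came from RefSeq (GRCm38.p6). Replicates are described as biological replicates by the study. Positions are those of GENCODE M21 (GRCm38).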

Additional observations from a re-analysis of the deposited data

Results flagged for a closer look

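In 2 of the 72 combinations of a member and a genotype, 1 library lay far from the others of its genotype by Dixon's criterion at the 95% level, and chance alone flags about 1 in 20 groups. *Eno1b* was at 9.782 TPM in WT replicate 3, against 0 to 0.1547 TPM in the other 4 WT libraries. *Egln2* was at 39.2 TPM in Δ*Gnas* replicate 3, against 25.48 to 27.65 TPM in the other 3 Δ*Gnas* libraries.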

How the results depend on the processing

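Over 21 alternative settings, *Eno2* was called in all 21 and *Eno1b* in all 19 in which it was fitted as a gene of its own. Members called higher numbered 1 in place of 2 without a filter, with the filter over 5 CPM, with the replicate block, in both limma-trend fits, without mitochondrial transcripts, with *Eno1* and *Eno1b* summed and with near copies summed, and 1 to 3 when a library was left out. Members called lower numbered 1 in place of 2 without a filter and with sex as a covariate, and 1 to 2 when a library was left out. The exact test called 5 of 35 members, 3 of them higher, and 12.3% of all genes. DESeq2 called 6 of 35 members, 3 higher and 3 lower, and 14.9% of all genes. Calls over all genes numbered 1769 in DESeq2 against 1134, and 519 to 1586 when a library was left out (655 without WT replicate 4, and 580, 611 and 519 without Δ*Gnas* replicates 4, 6 and 7). Leaving out a library gave 1 to 3 calls among other genes of glycolysis, 0 to 2 in glucose and lactate transport, 0 to 1 in pyruvate entry, 0 to 1 in the pentose phosphate pathway and 5 to 9 in the other hypoxia response. Glucose and lactate transport had 0 calls in both limma-trend fits and the pentose phosphate pathway had 1 in DESeq2. The cause of these shifts was not tested. *Hif1a* was also lost without a filter (edgeR adjusted p = 0.0526) and with sex as a covariate (edgeR adjusted p = 0.0537). *Eno1* turned from -0.46 to 0.41 with *Eno1b* summed into it and to 0.58 with near copies summed, none of them called. The correlation of deviations between libraries of the same number was 0.29, -0.04, 0.25 and 0.16 for replicates 3, 4, 6 and 7, and the Δ*Gnas* libraries 3, 6 and 7, but not 4, correlated best with the WT library of their own number. This is a hint of pairing from the data for 3 of the 4 numbers. As 1 pair was below 0.1 and the labels name no shared batch or litter, the main fit was left unpaired. With the replicate block, 3 members were called and 10% of all genes, *Pfkp* being lost (edgeR adjusted p = 0.0712). Low counts limit *P4ha2*, *Egln3* and the WT values of *Eno1b*.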
